A study of Saccharomyces cerevisiae with 6 samples.

Results

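The genes described here are 10 genes of yeast mating, chosen by name from 7126 features measured in each of 6 RNA libraries of budding yeast. They are MFA1, MFA2, STE6, STE2, STE3, BAR1, AGA1, AGA2, FUS3 and HO. All 10 were found once in each table, and all 10 passed the filter on low values. The study profiled polyadenylated RNA from cells in rich glucose medium (YPD), with 2 libraries from each of 3 strains, and its subject is how cells adapt when they lack thiol peroxidases, enzymes that reduce peroxides. The strains D8A and D8B carry the same genotype label, MATa with mutant his3, leu2, met15 and ura3 and with deletions of TSA1 (KAN), TSA2 (LEU2), DOT5 (MET15), AHP1 (HIS3), PRX1 (URA3), GPX2 (HYG), GPX1 (URA3), GPX3 (KAN) and SRX1 (NAT), where the marker used is in brackets. The strain labelled wild type (Wt-M11, WT below) has the source label Wtmonosome-XI, which the labels do not explain, and is given as MAT a with GAL, [phi+] and the alleles can1-100, his3-11,15, trp1-1, leu2-3 and ade2-1 and mutant ura3, and it carries HIS3 and KanMX6 at 1 intergenic site next to YKL006W on chromosome XI. All 3 strains are labelled S288c, but the marker alleles of WT are not those of the null strains, so a difference from WT can come from the background as well as from the deletions. Neither the number of clones behind D8A and D8B nor whether replicates were separate cultures is stated, so a p-value reflects the spread among these libraries alone, which may be technical.

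A haploid yeast cell has one of 2 mating types, a or alpha, set by the allele at the MAT locus. An a cell secretes a-factor and carries the receptor for alpha-factor, and an alpha cell does the reverse. Binding of the partner's pheromone activates a G protein, which starts a kinase cascade ending in the MAP kinase Fus3 and the transcription factor Ste12, and the cell then arrests, forms agglutinins and fuses. In alpha cells the repressor alpha2 binds with Mcm1 upstream of the a-specific genes and shuts them off, whereas in a cells they are transcribed. FUS3 and HO are transcribed in haploids of both types and repressed in a/alpha diploids.

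The site that separates the mating types can be read in the genome. The pattern CC, 6 bases of any kind, GG, 1 base of any kind and AATTTAC, which is a box of the kind Mcm1 binds followed by part of an alpha2 site and was written after the operators known for this gene class, was searched on both strands in the 400 bases before the start codon of 5987 protein-coding genes (RefSeq, R64). It was found before 5 genes, 0.0835% of all, namely the a-specific genes STE2, STE6, MFA1, MFA2 and ASG7. Such operators thus lie before 5 of the 7 a-specific genes whose RNA is compared below. They are shown on the strand where the pattern reads 5′ to 3′ and with the Mcm1 box in capitals.
STE2, VI:82351-82381, minus strand: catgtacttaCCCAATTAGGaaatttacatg
STE6, XI:46477-46507, minus strand: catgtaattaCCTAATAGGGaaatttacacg
MFA1, IV:1384942-1384972, plus strand: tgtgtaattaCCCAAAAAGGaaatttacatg
MFA2, XIV:352163-352193, plus strand: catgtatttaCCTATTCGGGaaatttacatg
ASG7, X:101905-101935, minus strand: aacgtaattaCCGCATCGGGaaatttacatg

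BAR1 and AGA2, also a-specific, held no match to these letters in this window, but both held the shorter half-site CATGTA, as did all 7 a-specific genes searched and 15.1% of all windows. The pheromone response element TGAAACA, which Ste12 binds, was found on either strand before 8 of the 10 members (all but STE3 and HO) and before 9.89% of all genes. Matches of CATGTA can overlap those of the longer pattern. A match is a description of the sequence and not a measured site of binding.

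MFA1 and MFA2 both code for precursors of a-factor, and their coding sequences are shown because their shortness sets how far their values can be read. Capitals mark the 36 bases of the mature peptide, 12 codons that end in the cysteine codon to which the lipid is attached.
MFA1, IV:1385176-1385286, plus strand: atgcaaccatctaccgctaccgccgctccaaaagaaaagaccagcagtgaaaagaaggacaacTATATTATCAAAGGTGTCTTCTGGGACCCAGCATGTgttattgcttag
MFA2, XIV:352414-352530, plus strand: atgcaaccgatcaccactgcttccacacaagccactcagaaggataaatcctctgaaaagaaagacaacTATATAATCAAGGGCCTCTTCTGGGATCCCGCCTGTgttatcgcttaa

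In the mature stretch 29 of 36 bases were identical, and 11 of 12 codons gave the same residue, with the difference at codon 6. Over the whole alignment 71.7% of 120 columns were identical, and the longest run shared by both genes was 11 bases.

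Values are FPKM, fragments scaled to feature length and library size, as the authors deposited them with the bounds of an interval. Depth, estimated from the steps of those bounds, was about 4020000 and 8060000 fragments in D8A, 14200000 and 10600000 fragments in D8B and 9150000 and 10100000 fragments in WT. D8A replicate 1 was the shallowest and had the lowest correlation across genes with its partner (r = 0.938, against 0.973 for the D8B pair and 0.976 for the WT pair). D8A replicate 2 correlated more highly with a D8B library (r = 0.965) than with D8A replicate 1, and each call below is given with its values when a library is left out. Of the 9 genes labelled as deleted, 8 were at no more than 4.92% of the WT mean in every library labelled D8A or D8B. SRX1 went against its label, with 319 to 654 FPKM in those 4 libraries and 52.8 to 76.8 FPKM in WT, so each direction below is between libraries labelled null and libraries labelled wild type. The median gene of chromosome XI, which holds STE3 and STE6, lay above the genes of the other nuclear chromosomes by 1.04 and 1.04 on the log2 scale in D8A, 1.15 and 1.05 in D8B and 1.05 and 0.98 in WT, where no other nuclear chromosome exceeded 0.43 in any library. If monosome XI means 1 copy of chromosome XI, the WT level, which lay as high as that of the null libraries, goes against the label. What this means for the comparisons of STE3, STE6 and ASH1 with WT was not tested. The raised level is also part of any comparison of STE3 and STE6 with genes of other chromosomes.

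The RNA of all 6 libraries had the pattern of MATa cells, as all 3 strains are labelled. Levels of different genes were compared on the midpoint of the deposited interval, because FPKM was 30.8 to 35.2 times the midpoint for MFA1 and 28.2 to 31.2 times for MFA2, but 1.02 to 1.03 times for STE6. The midpoint divides fragments by the whole feature length, and for features under 150 bp the median FPKM was 33.7 to 53.8 times it. The midpoint therefore ranks short genes such as MFA1, MFA2 and AGA2 lower than FPKM does. Which scale is nearer their true level was not tested. On the midpoint scale the sum over 7 a-specific genes was 9.26 and 11.3 times the sum over 5 alpha-specific genes in D8A, 14.5 and 10.1 times in D8B and 13.2 and 10.5 times in WT. In deposited FPKM the sums were 7023 to 11175 for the a-specific genes and 53.8 to 73.6 for the alpha-specific genes over the libraries. The members' mean midpoints ran from 7.24 FPKM for AGA1 to 145 FPKM for MFA2, with STE2 at 133, MFA1 at 109, STE6 at 65.5, BAR1 at 48.0, FUS3 at 41.7, AGA2 at 36.9, HO at 27.6 and STE3 at 12.7 FPKM. In deposited FPKM the means over the 6 libraries were 4327 for MFA2, 3723 for MFA1 and 153 for STE2. On the midpoint scale the median a-specific gene was 5.68 to 7.39 times the median alpha-specific gene. The exception was ASG7, an a-specific gene known to respond to pheromone, whose midpoint of 2.91 to 7.89 FPKM lay within the range of the alpha-specific genes (1.35 to 17.7 FPKM).

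**Figure D1:**
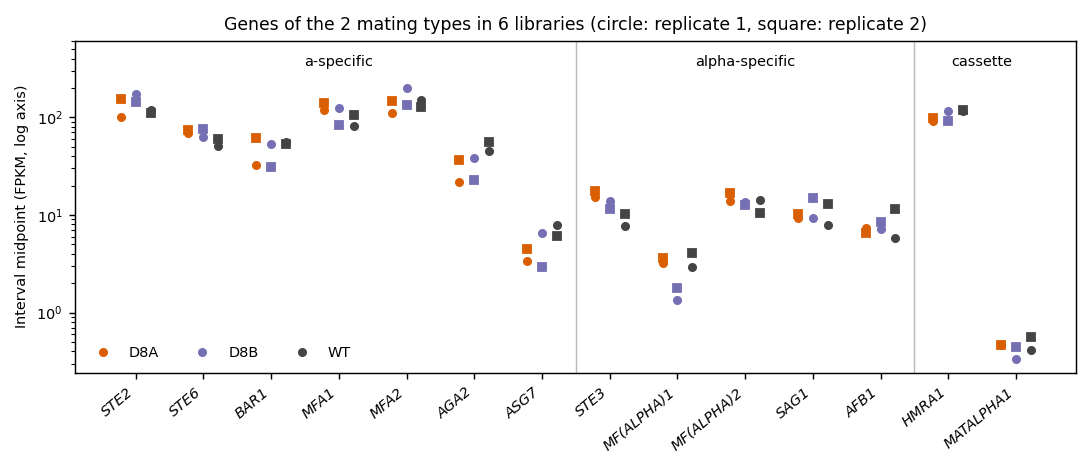
Midpoint of the deposited interval in FPKM (log axis) for 7 a-specific genes, 5 alpha-specific genes and the cassette genes HMRA1 and MATALPHA1, 1 point per library coloured by strain. All a-specific genes but ASG7 lie above every alpha-specific gene, and HMRA1 lies far above MATALPHA1 in every strain.

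Of the genes of the mating-type cassettes, HMRA1 and MATALPHA1 gave the same picture, while the others could not be read this way. The R64 reference carries an alpha cassette at MAT, so reads of the a1 gene of a MATa cell have their match at HMRA1, the silent copy, whose longest run in common with MATALPHA1 is 9 bases. HMRA1 held 178 and 200 FPKM in D8A, 240 and 186 FPKM in D8B and 242 and 241 FPKM in WT. MATALPHA1, the activator of alpha-specific genes, held 0.38 and 0.38 FPKM in D8A, 0.22 and 0.29 FPKM in D8B and 0.51 and 0.61 FPKM in WT. These MATALPHA1 values rest on about 1 to 3 fragments a library, so no ratio is given, whereas the lowest HMRA1 value rests on about 179 fragments. HMLALPHA1 is identical in sequence to MATALPHA1 and HMLALPHA2 to MATALPHA2, and the FPKM of each pair was the same in every library to the digits printed here. Reads of the silent alpha cassette therefore cannot be told from reads of one at MAT. By their MATa labels the strains hold no alpha cassette at MAT. The 360 bases of HMRA2 all lie within the sequence of MATALPHA2, which leaves the RNA of alpha2 (22.2 to 36.3 FPKM) and a2 (33.9 to 50.7 FPKM) uncertain. Of the 4 cassette features tested (HMRA1, HMRA2, MATALPHA2 and HMLALPHA2) 0 passed in limma in any comparison, and 0 had an unadjusted p under 0.05 (lowest limma adjusted p = 0.453). MATALPHA2 and HMLALPHA2 gave the same test values and share the sequence of HMRA2, so these 4 are not separate measurements. Over all features 21.1% had such a p for both null strains against WT, 18% for D8A, 19% for D8B and 9.18% for D8B against D8A.

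Across the 10 members, HO was higher and FUS3 lower in the libraries labelled null, and the other 8 did not pass. With D8A and D8B averaged and set against WT this made 1 higher and 1 lower of 10, where 6.45% of the 6925 features tested passed, 1.55% as higher and 4.91% as lower. In D8A against WT 1 member (HO) passed as higher and 0 as lower, against 5.05% of all features, 1.23% as higher and 3.83% as lower. In D8B against WT 0 passed as higher and 1 (FUS3) as lower, against 4.9% of all features, 1.21% as higher and 3.68% as lower. An unadjusted limma p under 0.05 was held by 4 members for both strains (STE3, AGA2, FUS3 and HO). The count was 4 in D8A and 2 in D8B, and the shares of all features were 21.1%, 18% and 19% in that order. The median change of the members was 0.28 on the log2 scale for both null strains, 0.22 for D8A and 0.33 for D8B, beside 0.01, -0.01 and 0.06 over all features tested. In these bulk samples fewer cells that express a gene and less RNA per cell cannot be told apart. D8A and D8B are each set against the same WT libraries.

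**Figure D2:**
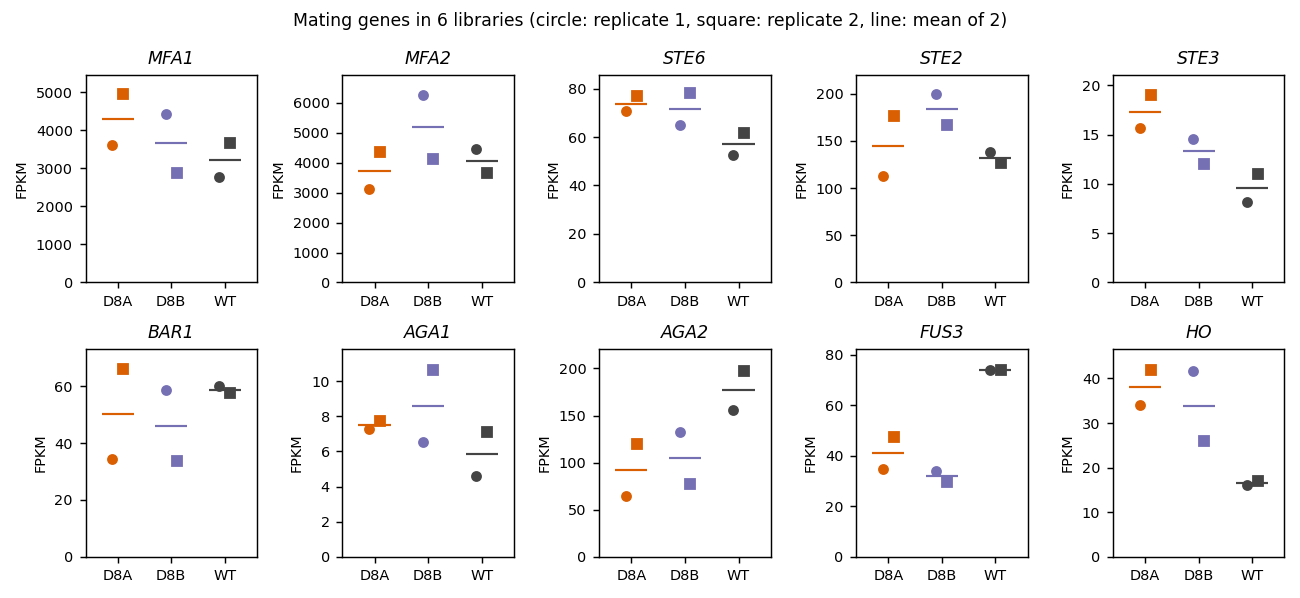
FPKM of the 10 members in each library (linear axes from 0), with a line at the mean of the 2 libraries of a strain. The null libraries lie below both WT libraries for FUS3 and AGA2 and above both for HO, STE3 and STE6, whereas MFA1, MFA2, STE2, BAR1 and AGA1 overlap with WT.

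FUS3 (YBL016W, chromosome II, 192451 to 193512, R64), the MAP kinase of the mating cascade, held 34.8 and 47.4 FPKM in D8A, 34.1 and 29.8 FPKM in D8B and 74.0 and 74.0 FPKM in WT. All 4 null libraries lay below both WT libraries, which were nearly equal. FUS3 averaged 36.5 ± 7.60 FPKM in the null libraries (SD, n = 4) and 74.0 ± 0.04 FPKM in WT (SD, n = 2), and on the log2 scale it fell by 1.02 ± 0.19 (SE; limma adjusted p = 0.0182). It fell by 1.19 ± 0.21 in D8B (limma adjusted p = 0.0213), while in D8A the change was -0.85 ± 0.21 (limma adjusted p = 0.0717, 95% interval -1.35 to -0.35). The call for both strains was lost without D8B replicate 2, WT replicate 1 or WT replicate 2 (limma adjusted p = 0.0551, 0.147 and 0.208), with the change between -1.13 and -0.91 when any library was left out. Without the filter on low values FUS3 did not pass for both strains or in D8B (limma adjusted p = 0.0542 and 0.0635). The call in D8B alone was lost without either D8B or either WT library (limma adjusted p = 0.0715 to 0.188), and the change in D8A passed without D8A replicate 2 (limma adjusted p = 0.0304). FUS3 passed in D8A too with features of 300 bp or more, with median centring, with quantile normalization and with the interval midpoint (limma adjusted p = 0.00455, 0.0280, 0.0326 and 0.0281).

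HO (YDL227C, chromosome IV, 46271 to 48031, R64) codes for the endonuclease that starts mating-type switching, and the labels do not give its allele. It held 34.2 and 41.9 FPKM in D8A, 41.7 and 25.9 FPKM in D8B and 16.2 and 16.9 FPKM in WT. All 4 null libraries lay above both WT libraries, the closest being D8B replicate 2. HO averaged 35.9 ± 7.60 FPKM in the null libraries (SD, n = 4) and 16.6 ± 0.52 FPKM in WT (SD, n = 2), a ratio of 2.17, and on the log2 scale it rose by 1.05 ± 0.22 (SE; limma adjusted p = 0.0322). It rose by 1.14 ± 0.25 in D8A (limma adjusted p = 0.0464), and in D8B the change was 0.95 ± 0.25 (limma adjusted p = 0.0851, 95% interval 0.36 to 1.54). The call for both strains was lost without D8A replicate 1, D8A replicate 2, D8B replicate 1, WT replicate 1 or WT replicate 2 (limma adjusted p = 0.0518, 0.0554, 0.0509, 0.217 and 0.251), with the change between 0.88 and 1.21. Without the filter on low values HO did not pass for both strains or in D8A (limma adjusted p = 0.0933 and 0.125). The call in D8A was lost without either D8A or either WT library (limma adjusted p = 0.108 to 0.267) and with a pseudocount of 0.1 or quantile normalization (limma adjusted p = 0.0575 and 0.0564). HO passed in D8B too with features of 300 bp or more and with the interval midpoint (limma adjusted p = 0.00129 and 0.0322).

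The a-factor genes did not pass in any comparison. MFA1 (YDR461W) held 3626 and 4957 FPKM in D8A, 4442 and 2873 FPKM in D8B and 2771 and 3673 FPKM in WT. MFA2 (YNL145W) held 3111 and 4349 FPKM in D8A, 6270 and 4105 FPKM in D8B and 4468 and 3656 FPKM in WT. The strains overlapped for both genes, the lowest MFA1 library being in WT and the lowest MFA2 library in D8A. The change of both null strains was 0.29 for MFA1 (limma adjusted p = 0.611, 95% interval -0.37 to 0.95) and 0.10 for MFA2 (limma adjusted p = 0.868, 95% interval -0.55 to 0.74). Each value rested on few fragments, about 52 to 198 at the interval midpoint for MFA1 and 52 to 333 for MFA2.

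STE6 (YKL209C, chromosome XI, 42423 to 46295, R64), the transporter that exports a-factor, held 70.8 and 76.8 FPKM in D8A, 65.0 and 78.1 FPKM in D8B and 52.4 and 61.5 FPKM in WT. The null libraries all lay above both WT libraries, and the change of 0.35 ± 0.18 (SE) did not pass (limma adjusted p = 0.317, 95% interval -0.06 to 0.76). STE6 and STE3 lie on chromosome XI, whose level was raised by a like amount in all 3 strains although WT is labelled monosome XI, and the part of this in their values was not tested.

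Of the receptors, STE2 (YFL026W), which binds alpha-factor in a cells, held 113 and 176 FPKM in D8A, 200 and 167 FPKM in D8B and 138 and 127 FPKM in WT. D8A replicate 1 lay below both WT libraries and the other null libraries above them, and the change of 0.28 did not pass (limma adjusted p = 0.533, 95% interval -0.25 to 0.81). STE3 (YKL178C, chromosome XI, 113215 to 114627, R64), the a-factor receptor of alpha cells, held 15.6 and 19.0 FPKM in D8A, 14.5 and 12.1 FPKM in D8B and 8.13 and 11.0 FPKM in WT. All null libraries lay above both WT libraries, and the change was 0.63 ± 0.20 (SE) for both strains, 0.80 ± 0.24 in D8A and 0.45 ± 0.24 in D8B (limma adjusted p = 0.130, 0.115 and 0.350). STE3 passed only when features of 300 bp or more were fitted alone, for both strains (limma adjusted p = 0.0431) and for D8A (limma adjusted p = 0.0227). STE3 shares 272 bases with YKL177W, and the sources used here do not state whether counting used the strand. YKL177W held 9.12 and 21.9 FPKM in D8A, 15.6 and 10.4 FPKM in D8B and 6.42 and 7.98 FPKM in WT. Both features were thus higher in all null libraries. If the strand was not used, reads within the 272 shared bases cannot be told apart. The rest of the 1413 bp of STE3 lies outside YKL177W.

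The other alpha-specific genes did not pass either. MF(ALPHA)1, the main alpha-factor gene, held 3.38 and 4.64 FPKM in D8A, 1.44 and 1.92 FPKM in D8B and 3.34 and 5.38 FPKM in WT, and its change in D8B was -0.98 ± 0.36 (SE; limma adjusted p = 0.190) on about 6.5 to 20.5 fragments a library. MF(ALPHA)2, the minor alpha-factor gene, held 19.2 to 31.9 FPKM, SAG1, the alpha-agglutinin, 8.18 to 15.8 FPKM and AFB1, the a-factor barrier (YLR040C, which overlaps YLR041W by 206 bases), 6.73 to 14.3 FPKM over the 6 libraries. Of the 5 alpha-specific genes 0 passed in limma in any of the 3 comparisons with WT, with 1 at an unadjusted p under 0.05 in each (STE3 for both strains and for D8A, MF(ALPHA)1 for D8B), beside 21.1%, 18% and 19% of all features, and the list's median change was 0.08 for both strains.

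BAR1 (YIL015W), the secreted protease of a cells that cleaves alpha-factor, held 34.2 and 66.1 FPKM in D8A, 58.5 and 33.7 FPKM in D8B and 60.2 and 57.4 FPKM in WT. Within each null strain 1 library lay near WT and the other far below, so the spread of the replicates was as wide as any difference (change -0.35, limma adjusted p = 0.570, 95% interval -1.06 to 0.37).

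The agglutinin of a cells has an anchor subunit, AGA1, made in both mating types, and an adhesion subunit, AGA2, made in a cells. AGA1 (YNR044W) held 7.30 and 7.73 FPKM in D8A, 6.55 and 10.7 FPKM in D8B and 4.59 and 7.11 FPKM in WT, and its change of 0.41 did not pass (limma adjusted p = 0.442). AGA2 (YGL032C) held 64.4 and 120 FPKM in D8A, 132 and 77.2 FPKM in D8B and 156 and 198 FPKM in WT. All null libraries lay below both WT libraries, and the change was -0.89 ± 0.32 (SE; limma adjusted p = 0.161, 95% interval -1.63 to -0.15). D8A replicate 1 held about 23 fragments of AGA2 at the interval midpoint, the fewest of any member in any library, and AGA2 at 264 bp is short enough for FPKM to exceed the midpoint by 2.98 to 3.51 times.

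**Figure D3:**
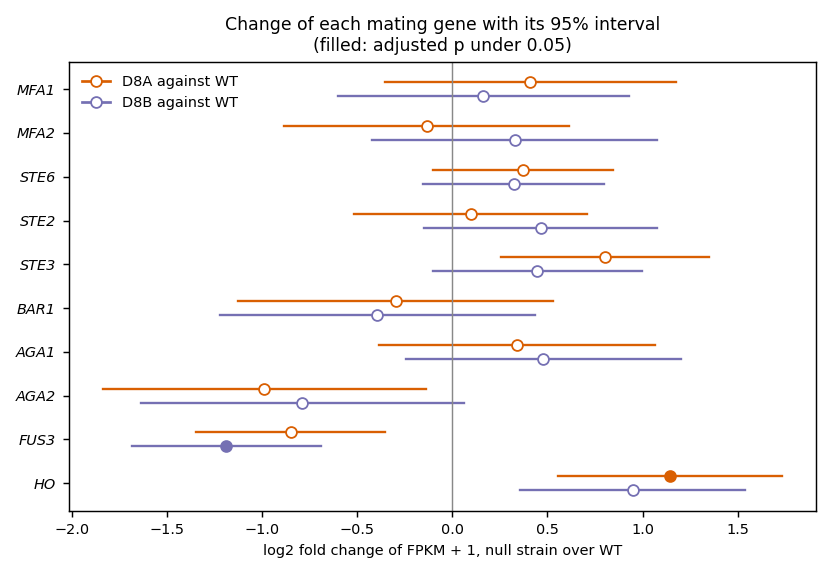
log2 fold change of FPKM + 1 of each member in D8A and in D8B against WT, with its 95% interval from limma. Only HO in D8A (1.14) and FUS3 in D8B (-1.19) pass at an adjusted p of 0.05.

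D8B was set against D8A to ask whether strains of the same genotype label differ in these genes. Of the 10 members 0 passed in limma, and 0 had an unadjusted p under 0.05 (9.18% of all features did), where 0.332% of all features passed, 0.217% as higher and 0.116% as lower. The largest changes were 0.46 for MFA2 (95% interval -0.29 to 1.21), 0.37 for STE2 (95% interval -0.25 to 0.98) and -0.36 for STE3 (95% interval -0.90 to 0.19). For FUS3 the change was -0.34 (95% interval -0.84 to 0.16) and for HO -0.20 (95% interval -0.79 to 0.39), so passing in one null strain and not in the other is not shown to be a difference between them.

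Outside the members, the lists of the pathway held 70 genes, of which 67 were tested. For both null strains against WT 1 passed as higher (SST2) and 3 as lower (PRM5, RME1 and ASH1), which is 5.97% of those tested and near the 6.45% of all features that passed. The count alone therefore says nothing particular to the pathway, and the values of these 4 genes follow. SST2 (YLR452C), which speeds the inactivation of the G protein and so desensitises the cell to pheromone, held 18.8 and 21.5 FPKM in D8A, 20.7 and 19.9 FPKM in D8B and 8.66 and 10.9 FPKM in WT. It rose by 0.99 ± 0.18 (SE) for both strains, by 0.98 in D8A and by 0.99 in D8B (limma adjusted p = 0.0178, 0.0384 and 0.0360). The call for both strains was lost without WT replicate 1 or WT replicate 2 (limma adjusted p = 0.194 and 0.113). The call in D8A was lost when any of the 6 libraries was left out (limma adjusted p = 0.0626 to 0.271), and that in D8B without either D8B or either WT library (limma adjusted p = 0.139 to 0.259). Both were also lost without the filter on low values (limma adjusted p = 0.0758 in D8A and 0.0679 in D8B), and the call in D8A when D8A and WT were fitted alone (limma adjusted p = 0.0676).

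PRM5 (YIL117C), a membrane protein induced by pheromone and also by cell wall stress, held 30.0 and 48.8 FPKM in D8A, 43.0 and 36.6 FPKM in D8B and 155 and 210 FPKM in WT. It fell by 2.18 ± 0.24 (SE) for both strains, by 2.21 in D8A and by 2.16 in D8B (limma adjusted p = 0.00208, 0.00508 and 0.00525). The call for both strains was kept in all 14 alternatives (highest limma adjusted p = 0.0346), and those in D8A and in D8B were lost only without WT replicate 2 (limma adjusted p = 0.0537 and 0.0584).

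RME1 (YGR044C), a haploid repressor of entry into meiosis, held 42.3 and 51.8 FPKM in D8A, 60.9 and 44.1 FPKM in D8B and 97.7 and 94.4 FPKM in WT, and it fell by 0.95 ± 0.20 (SE; limma adjusted p = 0.0303). ASH1 (YKL185W, on chromosome XI), the daughter-cell repressor of HO, held 52.5 and 62.9 FPKM in D8A, 74.3 and 80.5 FPKM in D8B and 107 and 126 FPKM in WT, and it fell by 0.79 ± 0.18 (SE; limma adjusted p = 0.0434). Both also passed in D8A (RME1 -1.02 and ASH1 -0.999, limma adjusted p = 0.0470 and 0.0371) and not in D8B (-0.88 and -0.58, limma adjusted p = 0.0767 and 0.182), and their differences between D8B and D8A did not pass (limma adjusted p = 0.871 and 0.601). For both strains RME1 was lost without D8A replicate 1, D8B replicate 2, WT replicate 1 or WT replicate 2 (limma adjusted p = 0.0551, 0.0818, 0.233 and 0.278), and ASH1 was lost without any library but D8A replicate 2 (limma adjusted p = 0.0564 to 0.456). In D8A alone RME1 was lost without any library but D8A replicate 2 (limma adjusted p = 0.0503 to 0.299), and ASH1 likewise (limma adjusted p = 0.0633 to 0.353). Without the filter on low values neither passed for both strains (limma adjusted p = 0.0721 for RME1 and 0.0640 for ASH1) or in D8A (limma adjusted p = 0.0994 and 0.0650). With D8A and WT fitted alone neither passed in D8A (limma adjusted p = 0.0523 and 0.0632), nor did RME1 with a pseudocount of 0.1 (limma adjusted p = 0.0562).

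**Figure D4:**
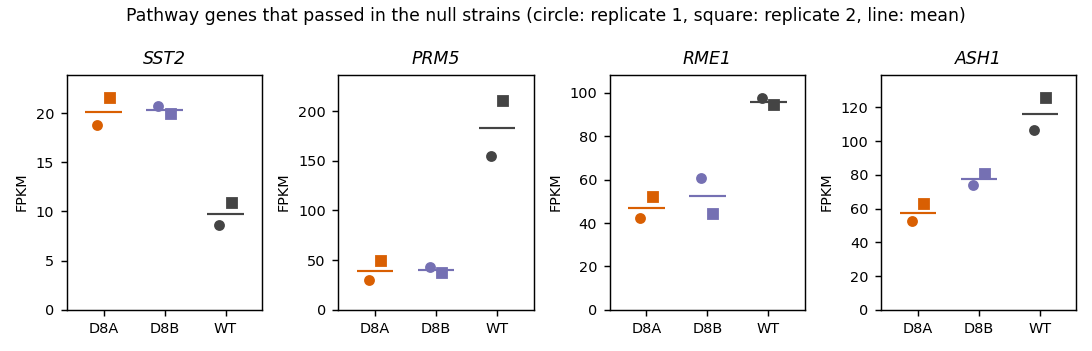
FPKM of the 4 pathway genes outside the members that passed when D8A and D8B were averaged, in each library (linear axes from 0), with a line at the mean of the 2 libraries of a strain. The 4 null libraries lie above both WT libraries for SST2 and below both for PRM5, RME1 and ASH1.

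Counts by list are for both null strains against WT, where 6.45% of all features passed in either direction. Of all features 21.1% had an unadjusted limma p under 0.05. Such a p was held by 5 of 21 signalling genes and 4 of 16 pheromone-induced genes. It was held by 4 of 11 haploid-specific genes and 1 of 4 regulators of HO. Of 21 signalling genes 1 rose (SST2) and 1 fell (FUS3), with a median change of -0.01. GPA1, STE4 and STE18, the G protein subunits, changed by -0.16, -0.07 and 0.02, the scaffold STE5 by 0.13 and the transcription factor STE12 by 0.34, with none passing in limma (lowest adjusted p = 0.376). FAR1, which links the cascade to cell cycle arrest, had a change of -0.46 that did not pass (limma adjusted p = 0.167). Of 16 pheromone-induced genes tested 1 rose (SST2) and 1 fell (PRM5), 13 had a positive change, as did 51.5% of all features, and the median was 0.17, beside 0.01 over all features. 1 further gene of that list did not reach the filter on low values and was not tested.

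Of 7 a-specific genes 0 passed in limma for both strains, with 1 (AGA2) at an unadjusted p under 0.05, beside 21.1% of all features, and a median change of 0.10. ASG7 held 3.50 and 4.95 FPKM in D8A, 7.79 and 3.31 FPKM in D8B and 9.75 and 7.19 FPKM in WT (change -0.73, limma adjusted p = 0.268). Of 11 haploid-specific genes 1 rose (HO) and 2 fell (FUS3 and RME1), with a median of -0.01. The 10 enzymes that mature the pheromones (0 passing in limma, 0 at an unadjusted p under 0.05, median 0.10) and the 4 SIR genes of silencing (0 passing in limma, 1 at an unadjusted p under 0.05, median 0.04) had 0 calls. The same held for 6 genes of meiosis, where 0 passed in limma and 0 had an unadjusted p under 0.05, with a median of 0.04. Of 4 regulators of HO 1 fell (ASH1), and the list's median was -0.18.

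**Figure D5:**
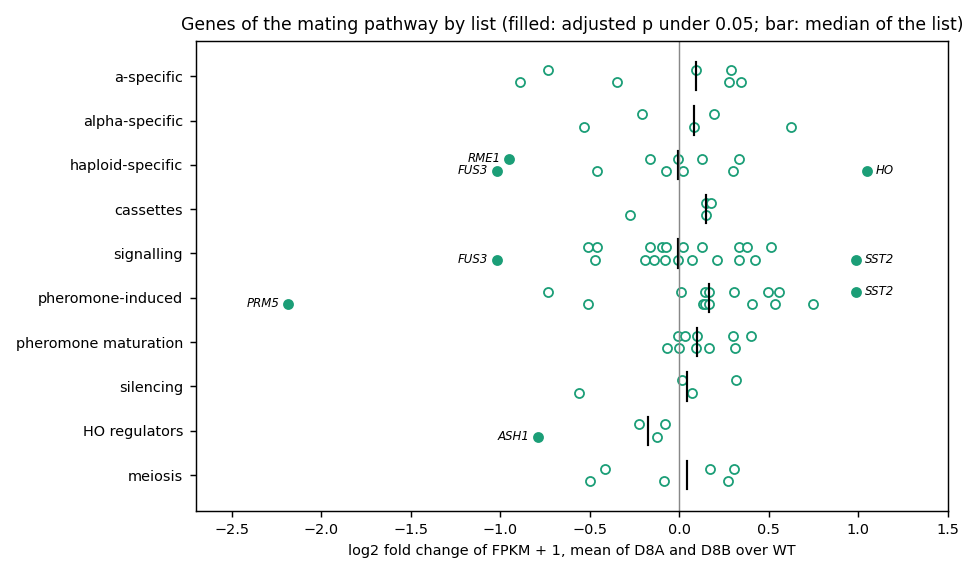
log2 fold change of FPKM + 1, mean of D8A and D8B over WT, for the tested genes of 10 lists, with a bar at each list's median. Most genes lie within 0.6 of 0, and the named genes FUS3, RME1, HO, SST2, PRM5 and ASH1 are those with an adjusted p under 0.05.

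As a description of profiles over the 6 libraries, the features of 300 bp or more whose log2 values were most correlated with each member were listed. For FUS3 these were OAZ1, ICL2 and DAL80 (Pearson r = 0.9967, 0.9957 and 0.9941), and for HO they were YCL042W, TOS8 and HOR2 (r = 0.9834, 0.9801 and 0.9799). For BAR1 they were FAD1, YOR111W and YNL200C (r = 0.9972, 0.9916 and 0.9852). For the other 7 members the 3 highest r lay between 0.9752 and 0.9964. These 6 points share strain, depth and library, and the features were picked as the highest of all of that length.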

How the data were processed

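Polyadenylated RNA of 6 libraries was analysed, 2 from each of the strains D8A, D8B and WT, grouped by their titles. The submitters' processing notes name Bowtie2 2.1.0, TopHat2 2.0.9, Cufflinks 2.1.1 and build R64, with neither role nor order. The deposited values are FPKM with interval bounds, per the file headers. Of 7126 features, 7051 had the status OK in every library, and of 6048 identifiers matched to the R64 annotation 6036 had the same coordinates. AFB1 was matched through its synonym. Interval bounds times length stepped in whole fragments for 86.2% to 90.9% of bounds under 20 fragments (tolerance 0.02), which gave the depth. FPKM was not converted to counts.

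From the deposited FPKM, log2(FPKM + 1) was fitted with limma 3.58.1 (R 4.3.3) in 1 model with a mean per strain, moderated variances with a mean trend, 3 residual and 4.7 prior degrees of freedom, over the 6925 features whose FPKM averaged 1 or more. The pseudocount understates changes of weakly expressed genes. Tests were two-sided, with Benjamini-Hochberg adjustment over all features tested and a threshold of 0.05. The script was tested on simulated data for both null strains against WT. There the genes given a change were drawn only from features well above the filter on low values. This leaves out weakly expressed genes such as AGA1 and ASG7, to which the shares do not apply. The fit called 44% of the genes given a log2 change of 1 and 82% of those given a change of 2. A change that did not pass is therefore not shown to be absent. Every member, the a-specific, alpha-specific, haploid and cassette genes, the genes of other lists that passed, and the 3 features most correlated with a member could be named. The members and lists were chosen with earlier results of these data known. Alternatives were another pseudocount, no filter, features of 300 bp or more, centred or quantile-normalized libraries, the replicate number as a block, the interval midpoint, 2 groups at a time, and leaving out each library. Intervals cover the spread between libraries as the model estimates it.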

Additional observations from a re-analysis of the deposited data

How the results depend on the processing

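The members called numbered 2 for both null strains against WT, 1 for D8A, 1 for D8B and 0 for D8B against D8A. Without the filter on low values, or with the replicate number as a block, these were 0 in every comparison. In D8A they were also 0 with a pseudocount of 0.1, 3 with features of 300 bp or more and 2 with median centring or the interval midpoint, and in D8B 2 with features of 300 bp or more or the midpoint. For both strains FUS3 and HO stayed called with features of 300 bp or more, and STE3 passed there as well (limma adjusted p = 0.0431). Leaving out a library gave 0 to 1 members called in each comparison with WT and 0 between the null strains.

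The count of all features changed for both strains was 447, and 270 without the filter, 948 with features of 300 bp or more, 685 with quantile normalization, 671 with the midpoint and 114 to 671 when a library was left out. For D8A it was 350, and 184, 801 and 187 without the filter, with 300 bp or more and with the block, and 90 to 473 when a library was left out. For D8B it was 339, and 175, 817, 213 and 594 without the filter, with 300 bp or more, with the block and with the midpoint, and 98 to 477 when a library was left out. For D8B against D8A it was 23, and 11, 197, 9 and 82 in the same order, and 10 to 104 when a library was left out.

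The replicate block gave 311 for both strains. The labels do not say that a number marks a shared batch, and deviations of same-numbered libraries correlated at -0.25 (D8A and D8B), -0.15 (D8A and WT) and 0.33 (D8B and WT). Crossing the D8A numbers turns the sign of the values that involve D8A. These correlations therefore cannot decide whether libraries shared a batch, under these numbers or others, and this was not tested. A block with the D8A numbers crossed, chosen after seeing the data, gave 824, 674, 709 and 91 features changed and 2, 2, 2 and 0 members.

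For both strains FUS3, HO, RME1 and ASH1 did not pass without the filter or with the block, whereas SST2 and PRM5 did. Within one null strain PRM5 passed under both settings, and the calls of HO, RME1, ASH1 and SST2 in D8A and of FUS3 and SST2 in D8B were lost under both (limma adjusted p with the block = 0.109, 0.109, 0.0648 and 0.0608 in D8A, and 0.0624 and 0.0604 in D8B). No called member changed direction in any alternative. Uncalled changes that crossed 0 were those of MFA2 in D8A with quantile normalization (0.24, against -0.14) and SST2 between the null strains with the midpoint (-0.01, against 0.02). The others crossed 0 when a library was left out. Against WT these ranged from -0.06 to 0.25 for MFA2 in both strains and -0.38 to 0.11 in D8A, -0.76 to 0.17 for BAR1 in D8A, -0.22 to 0.41 for STE2 in D8A and -0.15 to 0.48 for MFA1 in D8B. Between D8B and D8A they ranged from -0.17 to 0.45 for AGA1, -0.24 to 0.64 for AGA2, -0.56 to 0.37 for BAR1, -0.53 to 0.14 for HO, -0.56 to 0.07 for MFA1, -0.29 to 0.39 for PRM5, -0.08 to 0.37 for RME1, -0.08 to 0.11 for SST2 and -0.18 to 0.08 for STE6. The cause was not tested.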
